A study of Mus musculus with 9 samples.

Results

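The ligand-specific chains of the receptors that use the common gamma chain were compared between 3 sorted populations of innate intraepithelial lymphocytes (IELs) of the mouse small intestine. The 7 genes were Il7r, Il2ra, Il2rb, Il15ra, Il4ra, Il21r and Il9r, chosen by symbol, and each had 1 row of its own among the 19938 genes of the array table. RNA was measured on 9 Affymetrix Mouse Gene 1.0 ST arrays, and all values are log2 expression values from RMA. The cells came from NOD SCID mice, a strain that carries the scid mutation and lacks mature T and B cells, aged 8 to 10 weeks, and were sorted as CD45+ and CD3- with a stated high purity. The populations were Ly49E+CD8aa+ (called double-positive below), Ly49E+CD8aa- (Ly49E-only) and Ly49E-CD8aa+ (CD8aa-only). Each was measured on 3 arrays, named as biological replicates. No treatment was given. Whether an array stands for 1 mouse or a pool was not stated, so p-values measure the spread between these arrays. Ly49E belongs to the Ly49 receptors of NK cells, and CD8aa is a coreceptor form, built of CD8 alpha chains alone, that many IELs carry.

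The common gamma chain, encoded by Il2rg, has no specificity of its own. It joins a ligand-specific chain to form the receptors for IL-2, IL-4, IL-7, IL-9, IL-15 and IL-21, and the pair signals through the kinases JAK1 and JAK3 to STAT proteins. IL-7 and IL-15 are the members of this family best known for keeping innate and intraepithelial lymphocytes alive, and IL-15 is handed to them by IL-15 receptor alpha on neighbouring cells. Il2rg itself was not analysed here, because no row of the table was assigned to it alone.

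The arrays were alike in scale, with medians from 5.76 to 5.82 and 25th percentiles from 4.40 to 4.47. The transcripts of the sort markers differed between populations in the direction of the labels: Klra5, which encodes Ly49E, was at 11.40 in double-positive cells, 11.43 in Ly49E-only cells and 6.59 in CD8aa-only cells, and Cd8a was at 12.55, 11.42 and 12.58 in the same order. Cd3e, which encodes a CD3 chain, was at 11.75, 10.70 and 11.67, although the cells were taken as CD3- by surface staining. Likewise, the Cd8a level of 11.42 in Ly49E-only cells was far above the array medians, although these cells were sorted as CD8aa-. Enterocyte markers were measured in all 3 populations, with mean levels over 8 genes of 9.0015 to 9.55 in double-positive cells, 8.63 to 9.63 in Ly49E-only cells and 8.52 to 9.54 in CD8aa-only arrays, and 0 of 8 was called in any comparison (limma), with at most 1 at an unadjusted p under 0.05. In bulk RNA of sorted cells, fewer cells with a transcript and less of it per cell cannot be told apart.

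The receptor genes divided the populations unequally. Over the 3 populations, 3 of the 7 genes differed by the moderated F test of limma (Il7r, Il2ra and Il2rb), where 2.03% of all genes did. In double-positive cells set against Ly49E-only cells, 3 of 7 were called, where 1.7% of all genes were: Il7r and Il2ra were lower (2 genes, beside 1.22% of all genes) and Il2rb was higher (1 gene, beside 0.476%). In Ly49E-only cells set against CD8aa-only cells the same 3 genes were called, where 2.15% of all genes were, with Il7r and Il2ra higher (beside 1.35%) and Il2rb lower (beside 0.802%). In double-positive cells set against CD8aa-only cells 1 of 7 was called, where 0.13% of all genes were. This was Il7r, which was lower (beside 0.11%), and limma called 0 of 7 higher (beside 0.0201%) with 0 at an unadjusted p under 0.05. The median absolute log2 difference of the 7 genes was 0.29, 0.36 and 0.09 in these 3 comparisons, and that of all genes was 0.08, 0.08 and 0.07. A gene was called when its Benjamini-Hochberg adjusted p over all 19938 genes was under 0.05. Each pair of comparisons shares the arrays of 1 population, so their values are not independent of each other.

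**Figure D1:**
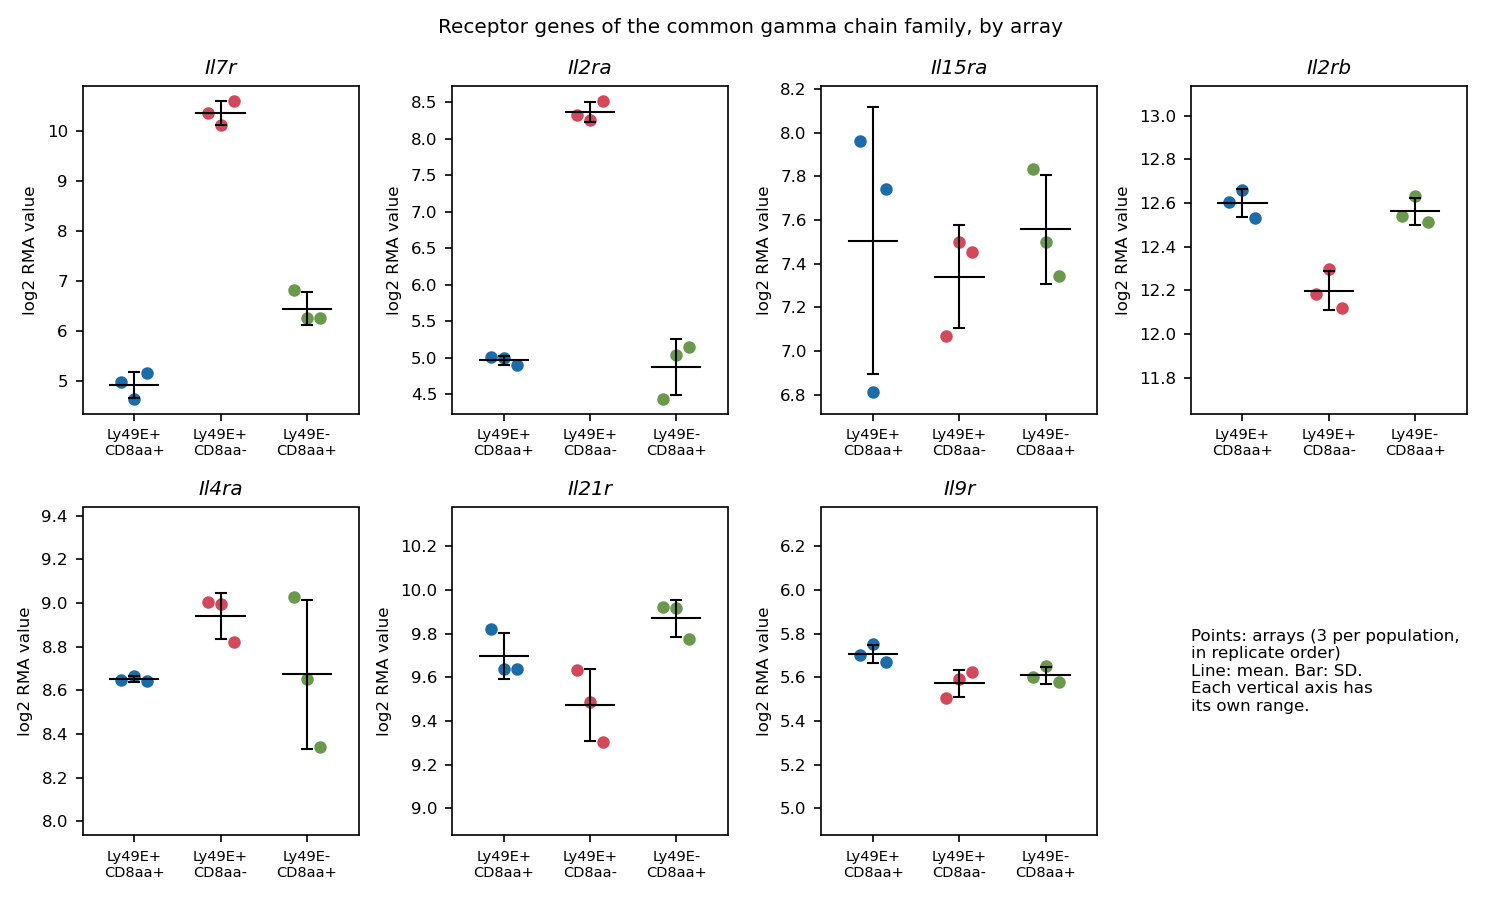
Log2 RMA value of each receptor gene (vertical axes, each with its own range) in the 3 arrays of double-positive (Ly49E+CD8aa+), Ly49E-only (Ly49E+CD8aa-) and CD8aa-only (Ly49E-CD8aa+) cells (points, in replicate order), with the mean (line) and SD (bar). Il7r stands at 3 separate levels, Il2ra is high in Ly49E-only cells alone, Il2rb is slightly lower there, and the other 4 genes span at most 1.15 log2 units over all arrays.

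Il7r encodes the alpha chain of the IL-7 receptor, which also forms the receptor for TSLP together with the product of Crlf2. It had values of 4.97, 4.64 and 5.16 in double-positive cells, 10.37, 10.12 and 10.61 in Ly49E-only cells, and 6.82, 6.25 and 6.27 in CD8aa-only cells. The populations did not overlap, and all Ly49E-only arrays lay more than 3 log2 units above every other array. The double-positive mean of 4.92 ± 0.26 was below the Ly49E-only mean of 10.37 ± 0.24 (SD, n = 3 each), a log2 difference of -5.44 (SE 0.19, limma adjusted p = 8.99e-07). Expressed as a fold, Il7r was 43.5-fold lower in double-positive cells. Ly49E-only cells in turn exceeded CD8aa-only cells, whose mean was 6.45 ± 0.33, by 3.92 (SE 0.19, limma adjusted p = 6.16e-06). Both calls held in all 20 alternative settings, with differences from -5.56 to -5.30 and from 3.80 to 4.11. No detection calls were used, so the low values in double-positive cells do not show that the transcript was missing.

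Double-positive cells also had less Il7r than CD8aa-only cells, the other CD8aa+ population, by a log2 difference of -1.52 (SE 0.19, 95% interval -1.96 to -1.09, limma adjusted p = 0.0303), 2.87-fold lower. The highest double-positive array (5.16) lay below the lowest CD8aa-only array (6.25). The order of Il7r levels was therefore Ly49E-only, CD8aa-only and double-positive cells from high to low, with each neighbouring pair called. The call of this smaller step was lost when nearly any 1 array was left out, and calls over all genes fell as well. Limma called 26 of all genes in this comparison with all arrays. Without 1 array it called 5 to 10, except without CD8aa-only replicate 2, where it called 32. Leaving out double-positive replicate 1 gave a limma adjusted p of 0.162, replicate 2 gave 0.156 and replicate 3 gave 0.101. Leaving out Ly49E-only replicate 1, 2 or 3 gave 0.0774, 0.0698 or 0.0647, although these arrays enter the comparison through the shared spread alone. Leaving out CD8aa-only replicate 1 or 3 gave 0.0745 or 0.0901, and leaving out replicate 2 gave 0.0483, which passed. With the 6 arrays of this comparison alone the limma adjusted p was 0.215, and against a minimum difference of 0.5 it was 0.360. The difference itself ran from -1.64 to -1.33 over all these settings. Of 10 markers of dendritic cells, 3 were called lower beside it (Siglech, Cd209d and Ly6d), where 0.11% of all genes were. The mean level over the list was 6.30 to 6.43 in double-positive cells and 6.98 to 7.27 in CD8aa-only arrays. The markers were chosen with earlier results of these data known, so their count is not independent of those results. The part of these markers in the result was not tested.

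The promoter of Il7r is shown as RefSeq lists it (GRCm38.p6, chr15:9529827-9530126, minus strand), from 250 bases before to 50 after the start, because this gene differs most between the populations. The capitals mark, in order, matches to a STAT motif (TTCNNNGAA), an ETS motif (ACTTCCT) and a RUNX motif (TGTGGT).
Il7r promoter: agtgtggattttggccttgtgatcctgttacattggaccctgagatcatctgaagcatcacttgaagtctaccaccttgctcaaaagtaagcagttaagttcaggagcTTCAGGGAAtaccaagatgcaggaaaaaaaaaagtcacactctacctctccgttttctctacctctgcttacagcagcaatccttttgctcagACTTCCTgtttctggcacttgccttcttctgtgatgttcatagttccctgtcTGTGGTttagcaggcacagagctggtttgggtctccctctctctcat
These matches begin at -142, -49 and 4 from the start site. Searched on both strands, the STAT motif is found in 8.30% of 32851 RefSeq promoter windows of the same length, the ETS motif in 9.35% and the RUNX motif in 16.8%. The motifs were chosen with the promoter letters in view, so these shares do not show that the matches are unusual. Such a match is a run of letters and does not show binding.

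Il2ra encodes the IL-2 receptor alpha chain (CD25), which binds IL-2 without signalling and raises the affinity of the receptor. It had values of 5.01, 4.99 and 4.89 in double-positive cells, 8.32, 8.27 and 8.52 in Ly49E-only cells, and 4.44, 5.03 and 5.15 in CD8aa-only cells. Only the Ly49E-only arrays were high, and the arrays of the CD8aa+ populations overlapped. Double-positive cells (mean 4.96 ± 0.061) was lower than Ly49E-only cells (8.37 ± 0.13) by a log2 difference of -3.41 (SE 0.16, limma adjusted p = 5.47e-06, n = 3 each), a 10.6-fold difference. Ly49E-only cells was higher than CD8aa-only cells (4.87 ± 0.38) by 3.50 (SE 0.16, limma adjusted p = 4.97e-06). Both calls held in all 20 alternative settings. Unlike Il7r, Il2ra had a difference of 0.09 between double-positive and CD8aa-only cells (95% interval -0.28 to 0.46) that did not pass (limma adjusted p = 1). Its sign turned without CD8aa-only replicate 1, the array with the lowest value (-0.12).

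The promoter of Il2ra (RefSeq, GRCm38.p6, chr2:11642542-11642841, plus strand) is set beside that of Il7r because these are the genes with the large differences. The capitals mark, in order, overlapping matches on both strands to the NF-kB consensus and a match to the ETS motif (ACTTCCT).
Il2ra promoter: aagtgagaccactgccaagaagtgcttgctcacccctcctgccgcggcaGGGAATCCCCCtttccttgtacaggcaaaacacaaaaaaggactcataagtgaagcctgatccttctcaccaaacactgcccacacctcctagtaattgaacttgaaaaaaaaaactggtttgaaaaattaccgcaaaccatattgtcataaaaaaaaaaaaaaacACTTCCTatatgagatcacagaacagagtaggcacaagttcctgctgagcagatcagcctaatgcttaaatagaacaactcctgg
The matches begin at -201 and -35, and the NF-kB consensus is found in 4.51% of the promoter windows. The ETS motif is the only one of the 6 searched that both promoters hold. FOXO (TGTTTAC) and T-box (TCACACC) motifs, found in 3.65% and 3.98% of windows, had no match in either. Promoter windows were listed for 6 of the 7 genes (not Il2rb). Il21r held a RUNX and a FOXO match that overlap each other, Il9r a RUNX match and Il4ra an NF-kB match, and the windows of Il15ra held none. Because the motifs were chosen with the promoter letters in view, neither these shares nor the ETS match in both promoters shows anything unusual.

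Il2rb encodes the IL-2 receptor beta chain (CD122), the signalling chain that the IL-2 and IL-15 receptors share. It was the 1 receptor gene called lower in Ly49E-only cells than in both CD8aa+ populations. It had values of 12.60, 12.66 and 12.53 in double-positive cells, 12.18, 12.30 and 12.12 in Ly49E-only cells, and 12.54, 12.63 and 12.52 in CD8aa-only cells. All Ly49E-only arrays lay below all others, and the CD8aa+ populations overlapped. Double-positive cells (12.60 ± 0.064) was higher than Ly49E-only cells (12.20 ± 0.090) by 0.40 (SE 0.072, 95% interval 0.24 to 0.56, limma adjusted p = 0.0248), and Ly49E-only cells differed from CD8aa-only cells (12.56 ± 0.062) by -0.36 (SE 0.072, 95% interval -0.53 to -0.20, limma adjusted p = 0.0344). These values lie near the top of the table, whose highest value was 13.8. Between double-positive and CD8aa-only cells the difference was 0.04 (95% interval -0.12 to 0.20).

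The size of the Il2rb difference was steadier than its call. Leaving out single arrays moved it from 0.36 to 0.45 between double-positive and Ly49E-only cells, and from -0.41 to -0.32 between Ly49E-only and CD8aa-only cells. Calls over all genes fell as well. They were 239 to 321 without 1 array, beside 339 with all arrays, in the first comparison. In the second they were 290 to 372, beside 429. The call against Ly49E-only cells was lost when double-positive replicate 1 (limma adjusted p = 0.0838), 2 (0.107) or 3 (0.0507) or Ly49E-only replicate 1 (0.0975) or 3 (0.0968) was left out. The call between Ly49E-only and CD8aa-only cells was lost when any array but Ly49E-only replicate 2 was left out: the limma adjusted p was 0.0588, 0.0541 and 0.0519 for the double-positive arrays in turn, 0.121 and 0.127 for Ly49E-only replicates 1 and 3, and 0.0824, 0.127 and 0.0761 for the CD8aa-only arrays in turn. With each array centred on its median it was 0.0658. With the 6 arrays of a comparison alone the limma adjusted p was 0.0694 against Ly49E-only cells and 0.0904 between Ly49E-only and CD8aa-only cells, and against a minimum difference of 0.5 it was 1 in both.

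Il15ra encodes the IL-15 receptor alpha chain, the counterpart of Il2ra in the IL-15 receptor, and is the neighbouring protein-coding gene of Il2ra in the RefSeq annotation. Its values were 7.96, 6.81 and 7.74 in double-positive cells, 7.07, 7.50 and 7.45 in Ly49E-only cells, and 7.83, 7.50 and 7.34 in CD8aa-only cells. The populations overlapped in every pair, and double-positive replicate 2 was the lowest of all arrays. The means of 7.51 ± 0.61, 7.34 ± 0.24 and 7.56 ± 0.25 did not differ by the F test (limma adjusted p = 0.943). The 95% interval of the difference was -0.45 to 0.78 for double-positive cells against Ly49E-only cells, -0.84 to 0.40 for Ly49E-only cells against CD8aa-only cells, and -0.67 to 0.57 for double-positive cells against CD8aa-only cells. These intervals were the widest among the 7 genes. A difference of the size seen in Il2ra lies outside the first 2 of these intervals.

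Il21r and Il4ra, also neighbouring protein-coding genes, differed from Ly49E-only cells in opposite directions, and neither was called. Il21r, the receptor chain for IL-21, had values of 9.82, 9.64 and 9.64 in double-positive cells, 9.63, 9.49 and 9.30 in Ly49E-only cells, and 9.92, 9.92 and 9.77 in CD8aa-only cells. The Ly49E-only arrays were the lowest and did not overlap with either other population. Ly49E-only cells differed from CD8aa-only cells by -0.40 (SE 0.097, 95% interval -0.62 to -0.18, limma adjusted p = 0.0979), and double-positive cells differed from Ly49E-only cells by 0.23 (95% interval 0.01 to 0.45, adjusted p = 0.508). Intervals are for single genes and are not adjusted for the number of genes.

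Il4ra encodes the alpha chain of the IL-4 receptor, which also serves the IL-13 receptor. It had values of 8.65, 8.67 and 8.64 in double-positive cells, 9.01, 8.99 and 8.82 in Ly49E-only cells, and 9.03, 8.65 and 8.34 in CD8aa-only cells. The CD8aa-only arrays spanned the values of both other populations. The difference between double-positive cells (8.65 ± 0.012) and Ly49E-only cells (8.94 ± 0.10) was -0.29 (95% interval -0.62 to 0.04, limma adjusted p = 0.622). That between Ly49E-only and CD8aa-only cells (8.67 ± 0.34) was 0.27 (95% interval -0.06 to 0.60).

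Il9r, the receptor chain for IL-9, a cytokine of mast cells and type 2 innate lymphoid cells, was nearly level. Its values were 5.70, 5.75 and 5.67 in double-positive cells, 5.505, 5.59 and 5.62 in Ly49E-only cells, and 5.60, 5.65 and 5.58 in CD8aa-only cells. The double-positive arrays were the highest and did not overlap with the others. The lowest of them (5.67) lay just above the highest Ly49E-only (5.62) and CD8aa-only (5.65) arrays. The difference of means was 0.14 against Ly49E-only cells (95% interval -0.0038 to 0.27) and 0.10 against CD8aa-only cells (95% interval -0.04 to 0.24), with limma adjusted p of 0.553 and 1. Its intervals were the narrowest of the 7 genes.

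Separation of the arrays was more common among these genes than calls. For double-positive cells against Ly49E-only cells, arrays did not overlap in 6 of 7 genes, all but Il15ra, where 12.9% of all genes separated. For Ly49E-only cells against CD8aa-only cells they did not overlap in 4 of 7 (Il7r, Il2ra, Il2rb and Il21r; 12.7% of all genes). For double-positive cells against CD8aa-only cells they did not overlap in 2 of 7 (Il7r and Il9r; 6.25% of all genes).

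**Figure D2:**
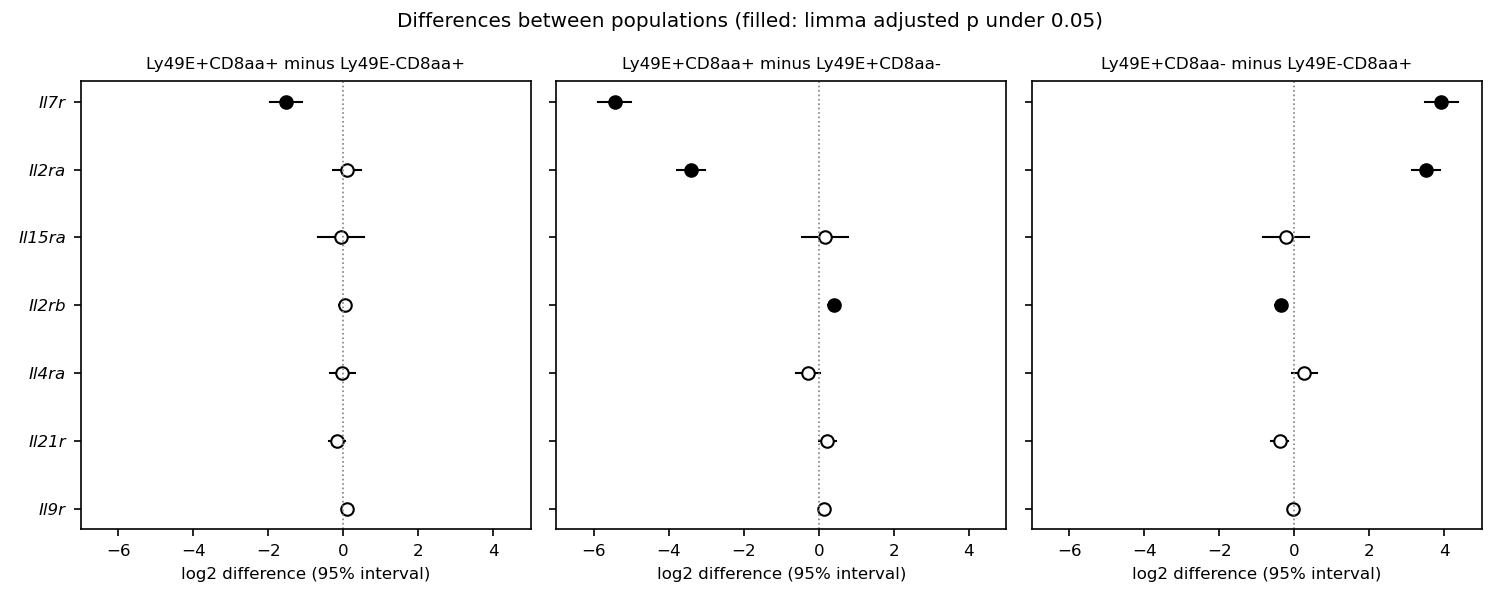
Log2 difference of each receptor gene (horizontal axis) with its 95% interval in the 3 comparisons, filled where the limma adjusted p is under 0.05. Il7r and Il2ra stand apart from the other genes in both comparisons with Ly49E-only cells, and Il7r alone is filled between the CD8aa+ populations.

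Beyond the receptor chains, Eomes, Cish and Bcl2 were the pathway genes called. Of 39 further genes listed for the pathway, 36 had a row of their own and were analysed; Il2rg and Jak3 were not. Against Ly49E-only cells, double-positive cells were lower in 1 of 36 (beside 1.22% of all genes) and higher in 0 (beside 0.476%). There 13 of 36 had an unadjusted limma p under 0.05 in either direction, beside 1880 of all 19938 genes. Ly49E-only cells were higher than CD8aa-only cells in 2 of 36 (beside 1.35%) and lower in 1 (beside 0.802%), with 11 at an unadjusted p under 0.05 beside 2081 of all genes. Between double-positive and CD8aa-only cells limma called 0 of 36 (beside 0.13% in either direction), with 2 at an unadjusted p under 0.05 beside 834 of all genes. In the same order, the median difference of the 36 genes was -0.05, -0.01 and -0.03 in these comparisons, where that of all genes was 0.03, -0.02 and -0.00049.

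Of the 7 ligand genes, 0 was called in any comparison (limma), with 2 (Il2 and Il4) at an unadjusted p under 0.05 between double-positive and Ly49E-only cells. Their difference was -0.44 for Il2 and 0.23 for Il4 (limma adjusted p = 0.313 and 0.356). Il2 also had an unadjusted limma p under 0.05 between Ly49E-only and CD8aa-only cells, with a difference of 0.34 (limma adjusted p = 0.471). All 7 ligand genes were dim, with every value below the array medians (5.76 to 5.82). Il21 (3.11 to 3.49) and Tslp (3.18 to 3.26) lay below the 25th percentile of every array (4.40 to 4.47), and Il2 ran from 4.15 to 5.10. At such levels the lack of calls does not show equal expression. Of the genes that carry the signal, Jak1, the kinase bound to the ligand-specific chains, was at 11.15 ± 0.10 in double-positive cells, 11.21 ± 0.033 in Ly49E-only cells and 11.25 ± 0.061 in CD8aa-only cells, and was not called. Stat5a, a main transducer of IL-2, IL-7 and IL-15, was at 7.67, 7.40 and 7.42 in the same order, and Stat5b, its close relative, at 7.61, 7.75 and 7.63, and neither was called. The 4 measured STAT genes had median differences from -0.01 to 0.04 over the 3 comparisons.

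Cish, a feedback inhibitor induced by STAT5, was higher in Ly49E-only cells (9.77, 9.72 and 9.56) than in CD8aa-only cells (9.31, 9.15 and 9.23), by 0.46 (SE 0.082, limma adjusted p = 0.0226). Bcl2, a survival gene kept on by IL-7 and IL-15 in lymphocytes, was lower in Ly49E-only cells (10.86, 10.89 and 11.02) than in CD8aa-only cells (11.29, 11.22 and 11.27), by a log2 difference of -0.34 (SE 0.067, limma adjusted p = 0.0346). The arrays did not overlap in either gene. In double-positive cells the values were 9.54, 9.40 and 9.37 for Cish and 11.21, 11.28 and 11.18 for Bcl2, and against Ly49E-only cells the differences of -0.25 and 0.30 did not pass (limma adjusted p = 0.314 and 0.0741). The 3 pathway calls between Ly49E-only and CD8aa-only cells became 1 without Ly49E-only replicate 1 or 2, without CD8aa-only replicate 2 or 3, and with the 6 arrays alone.

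Among regulators known to act on the receptor genes, Eomes was the 1 called. This T-box factor, which promotes Il2rb together with T-bet in NK cells, had values of 4.30, 4.53 and 4.12 in double-positive cells, 6.57, 7.48 and 7.40 in Ly49E-only cells, and 4.66, 4.35 and 4.73 in CD8aa-only cells. It was lower in double-positive cells than in Ly49E-only cells by a log2 difference of -2.83 (SE 0.23, limma adjusted p = 0.0002) and higher in Ly49E-only cells than in CD8aa-only cells by 2.57 (limma adjusted p = 0.000319). Its differences had the opposite sign to those of Il2rb, 0.40 and -0.36. Tbx21, which encodes T-bet, differed by -0.32 between double-positive and Ly49E-only (limma adjusted p = 0.0871) and by 0.20 between Ly49E-only and CD8aa-only (limma adjusted p = 0.359). Foxo1, a factor that promotes Il7r in lymphocytes, was at 8.36 ± 0.18 in double-positive cells, 8.43 ± 0.072 in Ly49E-only cells and 8.41 ± 0.16 in CD8aa-only cells and was not called.

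**Figure D3:**
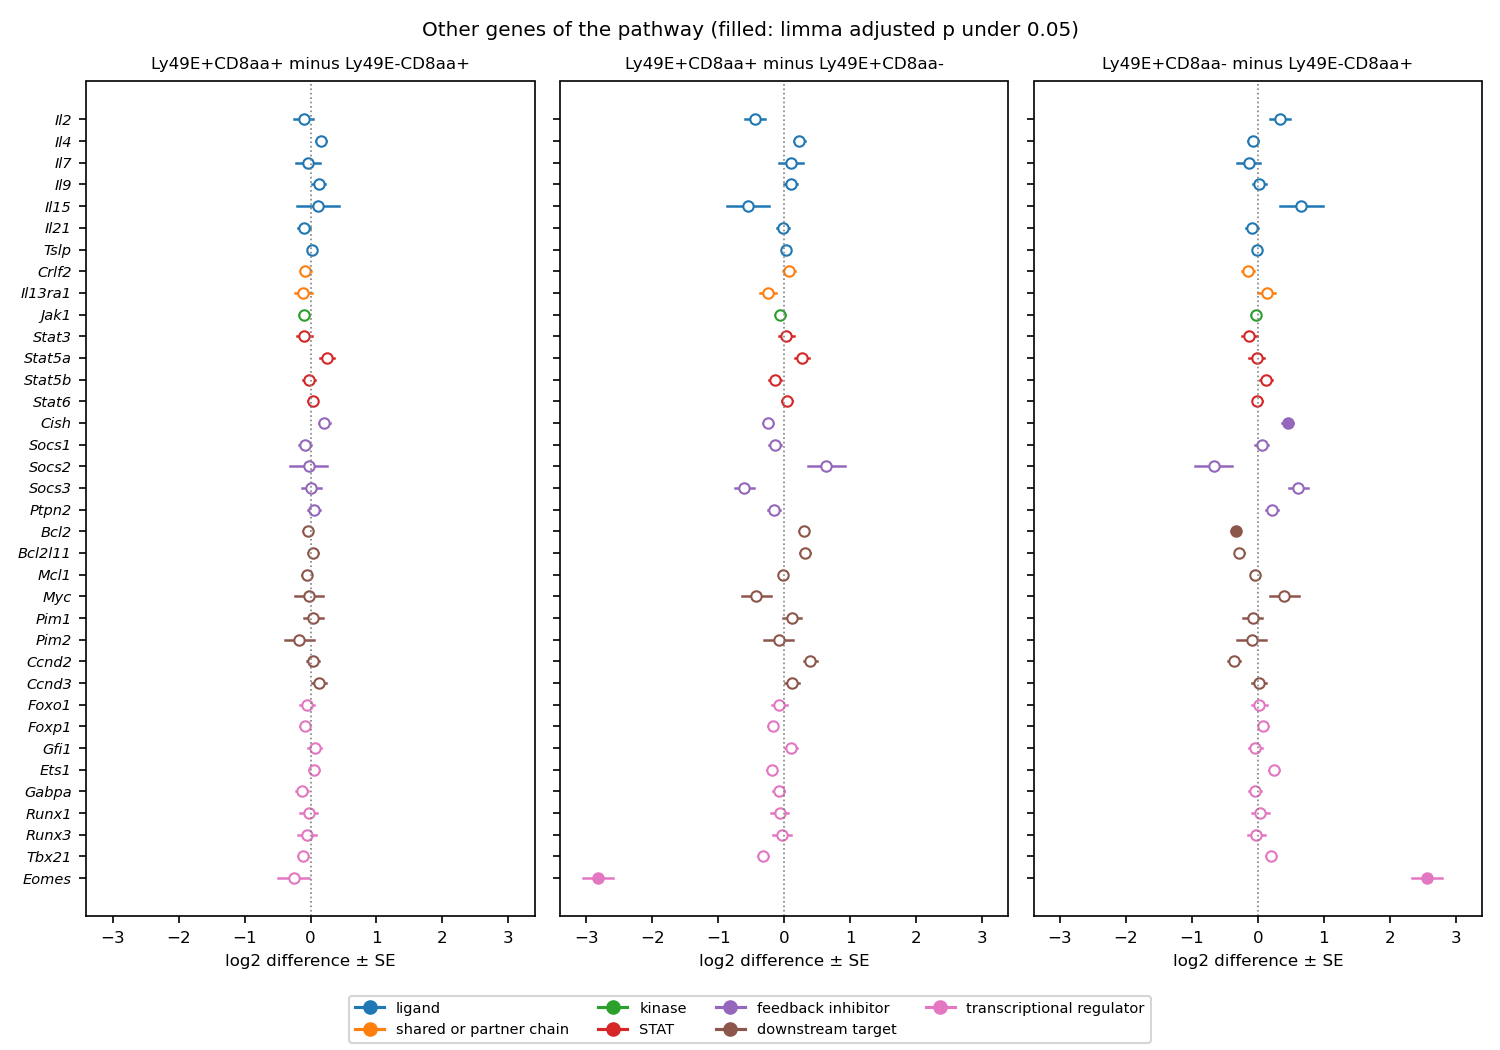
Log2 difference ± SE (horizontal axis) of the 36 other pathway genes in the 3 comparisons, coloured by role, for double-positive minus CD8aa-only cells, double-positive minus Ly49E-only and Ly49E-only minus CD8aa-only cells, and filled where the limma adjusted p is under 0.05. Eomes is the only gene beyond 1 log2 unit, and Cish and Bcl2 are the other filled points, in the comparison of Ly49E-only cells with CD8aa-only cells.

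Several markers of other lymphoid cells moved with Il7r and Il2ra, but Il13 and Themis were called in the other direction. Beside the counts below, 1.22% of all genes were called lower and 0.476% higher in double-positive than in Ly49E-only cells. In Ly49E-only against CD8aa-only cells, 1.35% were called higher and 0.802% lower. In the list for the sorted cells themselves, 3 of 6 genes went against Il7r and Il2ra. Itgae, Cd8a and Cd3e were higher in double-positive than in Ly49E-only cells and lower in Ly49E-only than in CD8aa-only cells. Klra5 was the 1 gene of that list called higher in Ly49E-only than in CD8aa-only cells. In the list for NK cells and type 1 innate lymphoid cells, 4 of 6 genes (Eomes, which is also in the pathway list, Ncr1, Klrk1 and Il18r1) were lower in double-positive cells than in Ly49E-only cells and higher in Ly49E-only cells than in CD8aa-only cells. The mean level over the list was 5.02 to 5.19 in double-positive cells, 8.24 to 8.52 in Ly49E-only cells and 5.21 to 5.23 in CD8aa-only arrays, and Il18r1 lay below every array's 25th percentile in both CD8aa+ populations. Of 4 measured genes for type 3 innate lymphoid cells (7 listed), Il23r and Ltb moved the same way, with mean levels of 6.67 to 6.78 in double-positive cells, 8.07 to 8.37 in Ly49E-only cells and 6.61 to 6.68 in CD8aa-only arrays. Of 5 measured genes for type 2 innate lymphoid cells (7 listed), Gata3 and Klrg1 were lower and Il13 higher in double-positive cells than in Ly49E-only cells, and the reverse held for Ly49E-only against CD8aa-only cells, with mean levels of 6.305 to 6.502 in double-positive cells, 6.498 to 6.62 in Ly49E-only cells and 6.30 to 6.37 in CD8aa-only arrays. Of 7 measured T cell genes (8 listed), Cd28, a costimulatory receptor, and Cd8b1, the CD8 beta chain, were lower in double-positive than in Ly49E-only cells and higher in Ly49E-only than in CD8aa-only cells. Cd8b1 averaged 5.28 in double-positive, 8.34 in Ly49E-only and 5.30 in CD8aa-only cells. Themis, a T cell signalling gene, was higher in double-positive than in Ly49E-only cells. The mean level over the T cell list was 6.07 to 6.09 in double-positive, 6.72 to 6.92 in Ly49E-only and 5.88 to 5.97 in CD8aa-only arrays.

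Kit, a receptor of mast cells and some innate lymphoid cells, was the 1 of 6 mast cell genes called. It was lower in double-positive (8.28) than in Ly49E-only cells (9.46), beside 1.22% of all genes. It was higher in Ly49E-only than in CD8aa-only cells (8.16), beside 1.35%. The mean level over that list was 5.04 to 5.23 in double-positive, 5.22 to 5.25 in Ly49E-only and 5.03 to 5.10 in CD8aa-only arrays. Of the 10 dendritic cell genes, 4 (Siglech, Cd209d, Cd209a and Ly6d) were lower in Ly49E-only than in CD8aa-only cells, beside 0.802% of all genes. Batf3 was higher, beside 1.35%. Mean levels over the list were 6.35 to 6.50 in Ly49E-only arrays and 6.98 to 7.27 in CD8aa-only arrays. Macrophage genes and B and plasma cell genes (6 measured of 7 listed in each) had 0 calls in any comparison by limma, with at most 1 macrophage gene and at most 3 B and plasma cell genes at an unadjusted p under 0.05. All marker lists were chosen with earlier results of these data known, so their counts are not independent of those results. The part of these cell types in the receptor differences was not tested.

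The genes most like a receptor gene were those with the smallest root mean square difference from it over the 9 arrays, after each gene was centred on its own mean. Genes with predicted or clone names (Gm and digits, Rik, LOC or a leading digit) were left out of the ranking. For Il7r these were Klrk1, the NKG2D receptor (0.65), Upp1, a uridine phosphorylase (0.67), and Il18r1, a chain of the IL-18 receptor (0.67), where Il7r itself had a root mean square deviation of 2.30 from its mean. Between double-positive and CD8aa-only cells these 3 genes differed by -0.26, -0.17 and -0.01, against -1.52 for Il7r. For Il2ra the nearest genes were Ctla2a, a homologue of cysteine protease propeptides (0.27), Nr1d1, the nuclear receptor Rev-erb alpha (0.30), and Icos, a costimulatory receptor (0.32). For Il2rb they were Prkch, a protein kinase C (0.059), Frmd4b, a FERM domain protein (0.061), and Lag3, an inhibitory receptor (0.062), where Il2rb deviated by 0.19. All 9 arrays enter each value, and the arrays of a population share their source.

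**Figure D4:**
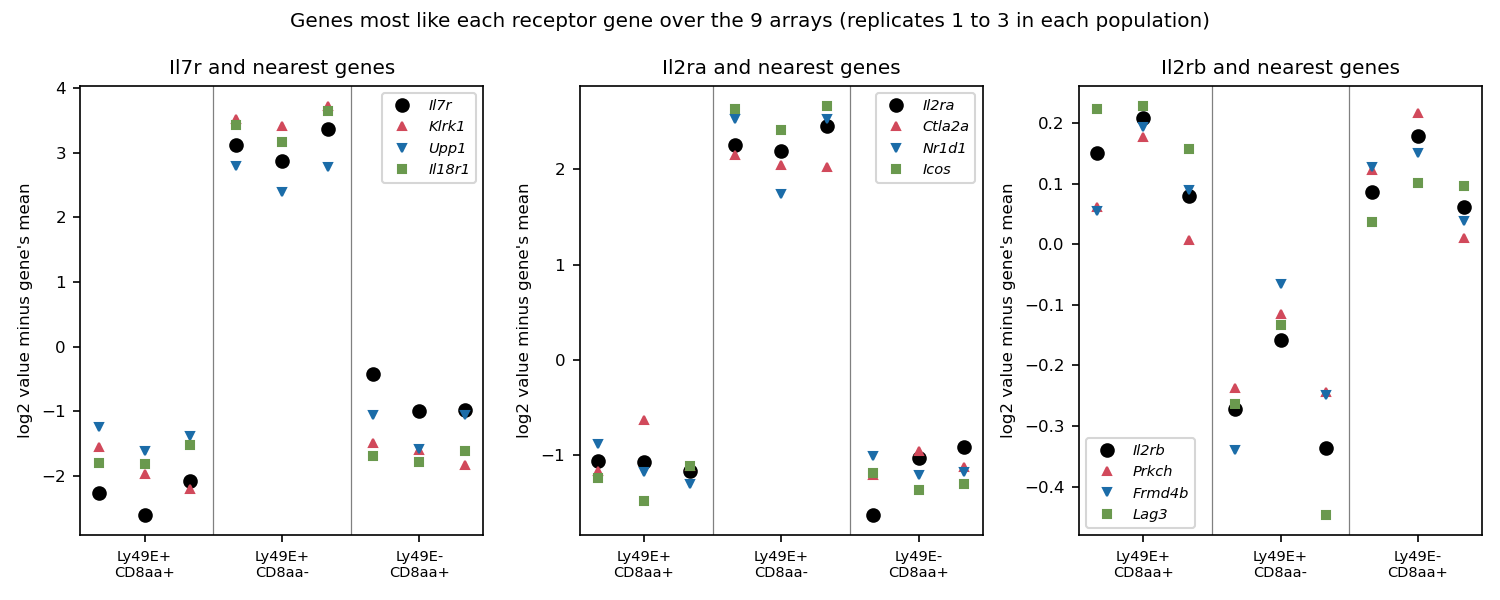
Log2 value minus the gene's mean over 9 arrays (vertical axis) for Il7r, Il2ra and Il2rb (black circles) and the 3 genes nearest to each, by array within population. Genes with predicted or clone names were left out of the ranking. Picked on these same arrays, the nearest genes follow Il7r into Ly49E-only cells, but not in its step between the CD8aa+ populations. Those of Il2ra, and Prkch and Frmd4b near Il2rb, are about level between the CD8aa+ populations. Lag3, near Il2rb, is higher in double-positive than in CD8aa-only cells by 0.12.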

How the data were processed

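The values were log2 expression values that the authors deposited after RMA, per the submitters' processing notes, with 1 column per array. That scale was inferred from their range, 1.84 to 13.8. The RMA version, build and annotation were not given in the sources used here. Symbols came from the platform annotation, updated by gene identifier. Of 35556 rows, 21789 had 1 symbol, 1621 had several and were not used, and 12146 were not listed. The brightest row stood for a gene, which left 19938 genes.

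A linear model with a mean per population was fitted to all 9 arrays with limma 3.58.1 in R 4.3.3 (empirical Bayes, prior degrees of freedom 3.08, no filter, no block, 2-sided tests), after a test on simulated data. The number of arrays limits the precision. The genes, pathway list and markers were chosen with earlier results of these data known. All receptor genes, called pathway genes, a few fixed pathway genes (Jak1, Stat5a, Stat5b, Foxo1, Tbx21 and Eomes, with Il2rg and Jak3 not analysed) and the 3 nearest genes are named. Alternatives covered the arrays fitted, filters, normalization, variance model, array weights, rows per gene, a replicate block, a minimum difference and each array left out.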

Additional observations from a re-analysis of the deposited data

How the results depend on the processing

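Over the 7 receptor genes and 3 comparisons, 381 of the values under alternatives kept direction and call, 28 lost a call, 1 gained a call and 7 changed sign. The calls of Il7r and Il2ra against Ly49E-only cells held under all 20 alternatives. Between double-positive and CD8aa-only cells, the 1 receptor call (Il7r) became 0 with the 6 arrays alone and 0 with a minimum difference of 0.5. Over all 19938 genes, limma called 26 in this comparison with all arrays, 0 with the 6 arrays alone and 4 with the minimum difference. The receptor count ranged from 0 to 1 when single arrays were left out, where 5 to 32 of all genes were called. Leaving out single arrays gave 2 to 3 receptor calls in each of the other comparisons, 2 by the F test, and 1 to 3 pathway calls between Ly49E-only and CD8aa-only cells. The pathway calls there, 3 in the fit of all arrays, were 1 with the 6 arrays alone and 1 with the minimum difference. Over all genes the calls there were 429, 263 and 123 in turn. Between double-positive and Ly49E-only cells the 1 pathway call became 0 with rows above the median, where Eomes was not among the genes tested. It became 3 with the intensity trend, 4 with array weights and 3 with the replicate block. Over all genes the calls were 339 in the main fit and 272 of 9855 with rows above the median. They were 359 with the trend, 422 with weights and 374 with the block. The cause of the other changes was not tested.

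Values that changed sign were all uncalled. With array weights, the difference between double-positive and CD8aa-only cells was -0.00096 for Il2ra and 0.038 for Il4ra. With single arrays left out it ran from -0.12 to 0.23 for Il2ra, -0.28 to 0.29 for Il15ra and -0.19 to 0.15 for Il4ra, and that of Il15ra between double-positive and Ly49E-only cells from -0.064 to 0.51. The labels do not say that replicate numbers pair the arrays. Deviations from population means correlated by -0.06 to 0.22 between same-numbered arrays, above 0.1 in 4 of 9 pairs. Between arrays of different numbers they correlated by -0.17 to 0.10, above 0.1 in 1 of 18 pairs. The replicate 1 pairs gave 0.17, 0.22 and 0.13, and 6 of 9 arrays correlated best with an array of their own number. In each population, Fabp1, Fabp2, Vil1, Alpi, Apoa1, Apoa4 and Krt20 were highest in replicate 1. Epcam was not so in double-positive cells. The cause was not tested. With the replicate number as a block, Il21r was called between Ly49E-only and CD8aa-only (-0.40, limma adjusted p = 0.0418), which made 4 receptor calls there, and the receptor counts stayed at 3, 1 and 3 for double-positive cells against Ly49E-only cells, for double-positive cells against CD8aa-only cells and by the F test. Il9r was not among the genes tested with rows above the median. The arrays give no depth, and dim rows carry no detection call.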

Other observations

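Among the ligand genes, Il15 read 5.20 in Ly49E-only replicate 1, against 3.71 and 3.86 in the other arrays of that population. It ran from 3.68 to 3.73 in double-positive cells and from 3.46 to 3.74 in CD8aa-only cells. All Il15 values but 5.20 lay below the 25th percentile of every array (4.40 to 4.47). The enterocyte gene Krt20 was also highest in Ly49E-only replicate 1, at 9.06 against 8.27 and 7.36. Krt20 was highest in replicate 1 of the other populations too, where Il15 read 3.70 and 3.46. A link between these values was not tested. The feedback inhibitor gene Socs2 had its widest spread in CD8aa-only cells, at 7.69, 8.32 and 8.91. Socs3, another feedback inhibitor, was at 6.59, 6.31 and 6.28 in double-positive cells and 7.27, 6.83 and 6.89 in Ly49E-only cells, a log2 difference of -0.60 (SE 0.14) that did not pass (limma adjusted p = 0.0901).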
